A study of Mus musculus with 6 samples.

Results

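Among the genes measured in splenic monocytes of mice with a knockout of the interleukin-4 receptor α chain are 10 large genes of the histone lysine methyltransferase families, most of whose proteins place methyl groups on lysines of the histone tail. They are *Kmt2a*, *Kmt2b*, *Kmt2c*, *Kmt2d*, *Kmt2e*, *Setd1a*, *Setd1b*, *Setd2*, *Ash1l* and *Nsd1*, picked by name as long genes of 1 protein class, out of 55421 gene identifiers counted. The choice was made with earlier results of these data known. All 10 passed the filter on low counts in both genotypes, as did 13849 genes in all. RNA sequencing was performed on 6 samples of splenic monocytes, 3 from IL-4Rα+/+ mice and 3 from IL-4Rα-/- mice, all of the C57BL/6 strain. IL-4Rα-/- mice carry the knockout of *Il4ra* in all cells, so that not only the monocytes are affected, and no library of the myeloid-specific knockout line was analysed here. The labels give neither age nor treatment, the study's methods describe adult mice, and the monocytes were obtained untouched from spleen suspensions with a commercial isolation kit. The labels number the samples without saying that each came from a mouse of its own, so p-values measure the spread between these samples, part of which may be technical. The comparison asks how gene expression of splenic monocytes at steady state differs when this receptor for IL-4 and IL-13 is knocked out.

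Methylation of lysine 4 of histone H3 marks promoters and enhancers of active genes, and methylation of lysine 36 marks the bodies of genes that are being transcribed. KMT2A, KMT2B, KMT2C, KMT2D, SETD1A and SETD1B write the lysine 4 mark as subunits of complexes built on a shared core of WDR5, RBBP5, ASH2L and DPY30, called WRAD. SETD2, NSD1 and ASH1L write the lysine 36 mark. In blood cells these enzymes are known from development and from leukaemia and lymphoma, where *KMT2A* is rearranged and *KMT2D*, *KMT2C* and *SETD2* are often mutated.

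The promoters are shown first, as sequence next to the starts of these genes, and their part in the levels was not tested. A RefSeq promoter on GRCm38.p6 was available here for 5 of the 10 genes (*Kmt2a*, *Kmt2c*, *Kmt2d*, *Setd1a* and *Setd2*). All 5 are CpG-dense. The 250 bases before their RefSeq start hold 25 CpG in *Setd1a* and 26 to 48 in the other 4, against a median of 6 over 32851 promoters, of which 10.7% hold 25 or more. Their GC content was 67.6% to 91.6%, against a median of 52.4%. The *Setd1a* window lies inside the GENCODE gene and overlaps a first exon there, so its sequence is not shown. The 100 bases before the RefSeq start of the other 4 are given in gene orientation, with each CpG in capitals.
Kmt2a, minus strand, chr9:44881290-44881389: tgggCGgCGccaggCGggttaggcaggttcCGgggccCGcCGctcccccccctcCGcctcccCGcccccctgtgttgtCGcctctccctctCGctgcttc
Kmt2c, minus strand, chr5:25498784-25498883: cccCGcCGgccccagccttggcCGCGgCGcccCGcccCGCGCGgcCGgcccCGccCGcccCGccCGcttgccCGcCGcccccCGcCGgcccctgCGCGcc
Kmt2d, minus strand, chr15:98871206-98871305: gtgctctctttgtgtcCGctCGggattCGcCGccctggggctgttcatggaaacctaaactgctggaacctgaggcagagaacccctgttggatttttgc
Setd2, plus strand, chr9:110532497-110532596: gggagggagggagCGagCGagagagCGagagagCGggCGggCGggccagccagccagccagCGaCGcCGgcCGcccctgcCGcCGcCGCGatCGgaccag
Of the 4, *Kmt2c* has the most CpG in this stretch, with 20, and *Kmt2d* the fewest, with 4. IL-4 signals through STAT6, whose preferred motif is TTCNNNNGAA, while TTCNNNGAA is the motif shared by the STAT family. Each motif reads the same on both strands, and matches of the different spacings cannot share a start. TTCNNNNGAA was found in 0 of the 5 promoters and in 5.85% of all promoters of this length. TTCNNNGAA was found in 1 of the 5, in *Kmt2d*, and in 7.02% of all promoters. It lies 57 to 49 bases before the *Kmt2d* start, at the capitals of this stretch.
Kmt2d, minus strand, chr15:98871244-98871272: cctggggctgTTCATGGAAacctaaactg
A match describes the letters only, and no binding was measured.

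The libraries held 26807281 to 29033297 reads counted on genes. *Il4ra* itself (ENSMUSG00000030748.9) was at 137, 128 and 177 CPM (counts scaled to a common library size) in IL-4Rα+/+ replicates 1, 2 and 3 and at 27.9, 79.4 and 31.8 CPM in IL-4Rα-/- replicates 1, 2 and 3. The receptor gene was thus lower in every IL-4Rα-/- library, but reads were left in all 3, with 781, 2268 and 940 counts in replicates 1, 2 and 3 and the most in the library labelled IL-4Rα-/- replicate 2. The counts are for the whole gene and do not show which exons these reads come from. All 14 monocyte markers passed the filter, among them *Csf1r*, *Ly6c2* and *Cx3cr1*, and their summed level was 21772 to 30428 CPM in IL-4Rα+/+ and 24432 to 30337 CPM in IL-4Rα-/- libraries. *Lyz2* alone gave 8839 to 17012 CPM of this sum, which hides differences between markers that are taken up with the libraries. Tests were made with edgeR's quasi-likelihood test, and a gene was called at a Benjamini-Hochberg adjusted p under 0.15, the threshold that the study's methods give. No gene was called (0%; smallest adjusted p = 0.618), while 1120 had an unadjusted p under 0.05. No methyltransferase was therefore called by edgeR, and what follows describes sizes and counts. DESeq2, the tool used by the study, called 80 genes at the same threshold.

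Of the 10 methyltransferases, 10 had a lower mean level in IL-4Rα-/- monocytes, where 48.5% of all genes tested were lower. At an unadjusted p under 0.05, 9 of 10 were lower, against 4.37% of all genes, and 0 of 10 were higher, against 3.72%. Without IL-4Rα+/+ replicate 2 the count was 5 of 10, since *Kmt2a*, *Kmt2b*, *Kmt2c* and *Kmt2e* no longer passed. In 9 of 10 every IL-4Rα-/- library lay below every IL-4Rα+/+ library, as it did in 7.87% of all genes. The gene outside each of these counts of 9 was *Setd1a*. Since the genes were chosen with earlier results of these data known, the counts only describe them. The median log2 fold change was -0.31 over the 10 genes and 0.01 over all genes tested. In bulk RNA, a lower level of a transcript per cell and a smaller share of the cells that carry it cannot be told apart.

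**Figure D1:**
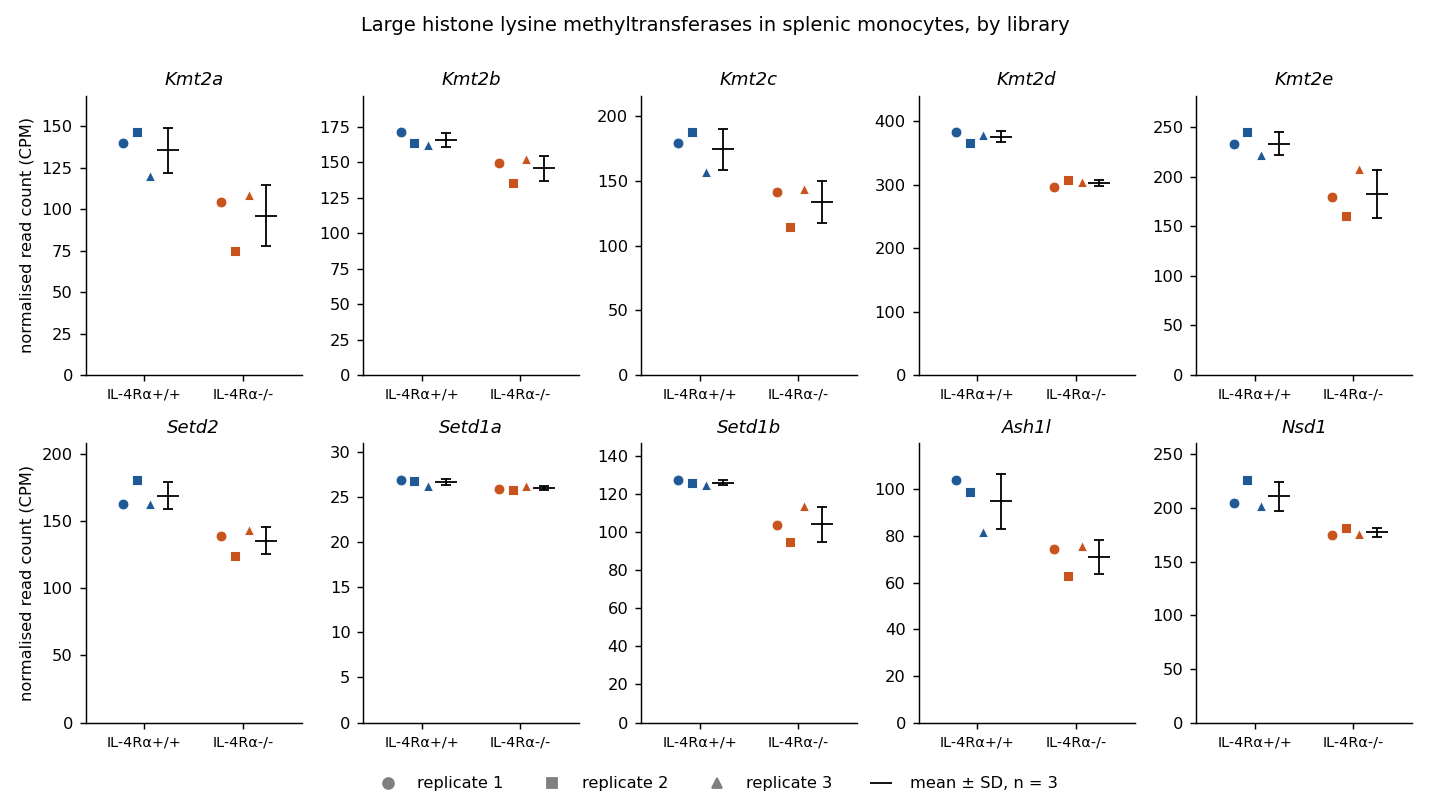
Normalised read count in CPM (y axis, from 0) of each methyltransferase in the 3 IL-4Rα+/+ (blue) and 3 IL-4Rα-/- (orange) libraries, with the mean ± SD beside the points. The genotypes do not overlap in 9 panels, while the 6 points of *Setd1a* lie between 25.8 and 26.9 CPM.

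*Kmt2a* and *Kmt2b* encode the MLL1 and MLL2 proteins, which bind CpG-rich promoters and act with menin. *Kmt2a* (ENSMUSG00000002028.13, minus strand, chr9:44803355-44881296 of GRCm38) had 139.8, 146 and 120.1 CPM in IL-4Rα+/+ replicates 1, 2 and 3, and 105, 75.1 and 109 CPM in IL-4Rα-/- replicates 1, 2 and 3. The genotypes did not overlap, and the lowest value was in IL-4Rα-/- replicate 2. Its mean was 135 ± 13.7 CPM (SD, n = 3) in IL-4Rα+/+ and 96.2 ± 18.4 CPM (SD, n = 3) in IL-4Rα-/- monocytes. With a log2 fold change of -0.49 (SE 0.16; edgeR, unadjusted p = 0.0177, adjusted p = 0.618), it had the largest difference of the 10 genes. *Kmt2b* (ENSMUSG00000006307.16, minus strand, chr7:30568858-30588726) differed less. Its CPM was 171, 163 and 162 in IL-4Rα+/+ and 149.5, 135 and 152 in IL-4Rα-/- replicates 1, 2 and 3, a log2 fold change of -0.18 (SE 0.08; edgeR, unadjusted p = 0.0469, adjusted p = 0.618). The genotypes did not overlap, but the lowest control and the highest knockout library lay close together, and of the 9 genes this p was the closest to 0.05.

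*Kmt2c* and *Kmt2d* encode MLL3 and MLL4, which methylate enhancers in complexes that also hold the demethylase KDM6A. *Kmt2c* (ENSMUSG00000038056.15, minus strand, chr5:25271798-25498783), the gene with the longest span of the 10 at 227 kb, had 179, 188 and 157 CPM in IL-4Rα+/+ and 142, 115 and 144 CPM in IL-4Rα-/- replicates 1, 2 and 3. The mean was 175 ± 16.0 CPM (SD, n = 3) against 133 ± 16.2 CPM (SD, n = 3), and the lowest library was again IL-4Rα-/- replicate 2. The log2 fold change was -0.39 (SE 0.12; edgeR, unadjusted p = 0.0144, adjusted p = 0.618). *Kmt2d* (ENSMUSG00000048154.17, minus strand, chr15:98831669-98871204) has the longest transcript of the 10 at 19823 bp and the most counts per library, 8334 to 10910. Its CPM was 383, 366 and 378 in IL-4Rα+/+ and 297, 307 and 304 in IL-4Rα-/- replicates 1, 2 and 3. Both genotypes were tight, with 376 ± 8.63 CPM (SD, n = 3) and 303 ± 5.05 CPM (SD, n = 3), and here IL-4Rα-/- replicate 2 was the highest of its genotype. The log2 fold change was -0.31 (SE 0.06; edgeR, unadjusted p = 0.00218, adjusted p = 0.618). *Kmt2d* was the only one of the 10 that DESeq2 called (adjusted p = 0.0424), where DESeq2 called 0.293% of 14003 genes lower.

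*Setd1a* and *Setd1b* encode the catalytic subunits of the SET1 complexes, which place most of the trimethyl mark at lysine 4. *Setd1b* (ENSMUSG00000038384.16, plus strand, chr5:123142193-123168629) had 128, 126 and 125 CPM in IL-4Rα+/+ and 104, 94.9 and 114 CPM in IL-4Rα-/- replicates 1, 2 and 3, with a log2 fold change of -0.28 (SE 0.08; edgeR, unadjusted p = 0.0147, adjusted p = 0.618). *Setd1a* (ENSMUSG00000042308.14, plus strand, chr7:127776670-127800122) had 26.9, 26.7 and 26.2 CPM in IL-4Rα+/+ and 25.9, 25.8 and 26.2 CPM in IL-4Rα-/- replicates 1, 2 and 3. These values overlapped between the genotypes, and the log2 fold change was -0.04 (95% confidence interval -0.20 to 0.13; edgeR, unadjusted p = 0.613, adjusted p = 0.865). The interval includes the -0.18 of *Kmt2b* and leaves out the estimates of the other 8 genes. The difference between the SETD1 genes was not tested. *Setd1a* has the shortest transcript of the 10 (6487 bp) and the lowest counts, 695 to 776 per library. A readthrough gene of the same strand, *Gm49388*, shares 51.8% of its exonic bases and was counted 0 times in every library, so reads in the shared part, which belong to both genes, may be missing from its count. It also lies 2197 kb from *Il4ra* on chromosome 7, the nearest of the 10.

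*Kmt2e* encodes MLL5, a SET domain protein that reads rather than writes lysine 4 methylation and is needed for normal blood stem cells. *Kmt2e* (ENSMUSG00000029004.15, plus strand, chr5:23434441-23504235) had 233, 245 and 222 CPM in IL-4Rα+/+ and 179.5, 160.0 and 208 CPM in IL-4Rα-/- replicates 1, 2 and 3. The knockout libraries were spread widely, with the highest, replicate 3, nearest to the controls. The mean was 233 ± 11.5 CPM (SD, n = 3) against 183 ± 24.2 CPM (SD, n = 3), a log2 fold change of -0.35 (SE 0.11; edgeR, unadjusted p = 0.0156, adjusted p = 0.618). *Srpk2* on the opposite strand covers 9.31% of its exonic bases.

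The writers of lysine 36 methylation had lower means as well. *Setd2* (ENSMUSG00000044791.16, plus strand, chr9:110532597-110618633), which travels with RNA polymerase II and writes the trimethyl mark, had 163, 181 and 163 CPM in IL-4Rα+/+ and 139, 124 and 143 CPM in IL-4Rα-/- replicates 1, 2 and 3. Its log2 fold change was -0.32 (SE 0.09; edgeR, unadjusted p = 0.00894, adjusted p = 0.618). *Nsd1* (ENSMUSG00000021488.8, plus strand, chr13:55209782-55318325), which writes the dimethyl mark, had 205, 226 and 202 CPM in IL-4Rα+/+ and 175, 182 and 175 CPM in IL-4Rα-/- replicates 1, 2 and 3. Like *Kmt2d*, *Nsd1* had a tight knockout group in which replicate 2 was highest, and its log2 fold change was -0.25 (SE 0.07; edgeR, unadjusted p = 0.0132, adjusted p = 0.618). *Ash1l* (ENSMUSG00000028053.13, plus strand, chr3:88950622-89079375), a Trithorax group member that opposes Polycomb silencing, had 104, 98.8 and 81.6 CPM in IL-4Rα+/+ and 74.4, 62.7 and 75.7 CPM in IL-4Rα-/- replicates 1, 2 and 3. The lowest control, replicate 3, came close to the knockout libraries without overlap. Its log2 fold change was -0.42 (SE 0.12; edgeR, unadjusted p = 0.0115, adjusted p = 0.618), second in size to *Kmt2a*.

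By an exact two-sided permutation test of log2 CPM, each of the 9 separated genes had p = 0.10, the smallest that 3 libraries against 3 can give, and *Setd1a* had p = 0.20.

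Levels were compared between genes per kilobase of the longest transcript (RPKM). *Kmt2e* had the highest level in IL-4Rα+/+ monocytes, 31.9 ± 1.57 RPKM (SD, n = 3), and *Setd1a* had the lowest on this scale, 4.10 ± 0.055 RPKM (SD, n = 3). *Setd2*, *Kmt2b* and *Kmt2d* followed *Kmt2e* at 20.2, 19.6 and 19.0 RPKM, and neighbours among these 3 overlapped between libraries. *Nsd1*, *Setd1b* and *Kmt2c* came next at 16.5, 14.2 and 11.7 RPKM, each without overlap with its neighbours. *Kmt2a* and *Ash1l*, the genes with the largest fold differences, were near the bottom of the order at 8.22 and 8.14 RPKM and overlapped each other. In IL-4Rα-/- monocytes *Kmt2e* was still highest, at 24.9 RPKM. With the union of all annotated exons as the length, *Kmt2e* had 22.3 RPKM and *Kmt2d*, at 18.9 RPKM, took the next place. The place of *Setd1a* is not secure. Over the 3272 exonic bases it does not share with *Gm49388*, a length chosen after the data were seen, it was at 8.14 RPKM in IL-4Rα+/+ and 7.93 RPKM in IL-4Rα-/- monocytes. By union of exons *Kmt2a* was at 8.12 and 5.77 RPKM and *Ash1l* at 6.39 and 4.78 RPKM in IL-4Rα+/+ and IL-4Rα-/- monocytes.

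The methyltransferases were chosen as long genes, and the fold change varied with transcript length across all genes tested. Sorted by longest transcript, all 10 fell in the longest decile of the genes tested, 6473 to 123179 bp, and their own lengths ran from 6487 to 19823 bp with a median of 10250.5 bp. In that decile of 1385 genes the median log2 fold change was -0.14, 74.1% of genes were lower in IL-4Rα-/- monocytes and 19.7% were lower at an unadjusted p under 0.05. In the shortest decile, 53 to 1096 bp, the median was 0.12 and 35.4% were lower. The deciles in between stepped down from 0.10 to -0.08 without a break in the order. Of the methyltransferases, 9 lay below the median of the longest decile, and *Setd1a* lay above it. By the 3272 exonic bases it does not share with *Gm49388*, *Setd1a* would fall in the decile of 3130 to 3657 bp. The median there was 0.01. *Kmt2a* and *Ash1l* lay below the 10th percentile of the longest decile, -0.39, with *Kmt2c* just above.

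**Figure D2:**
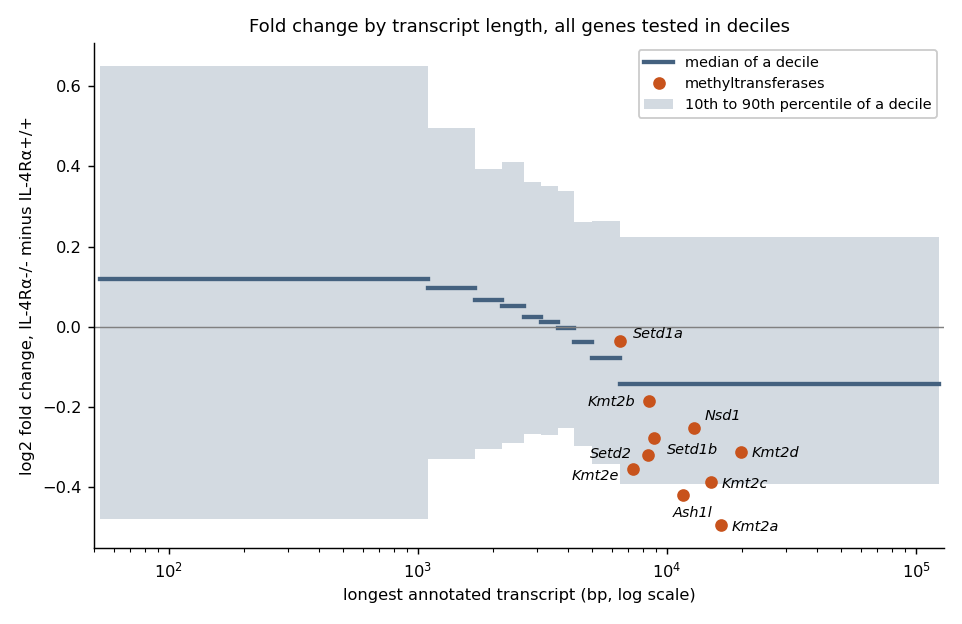
Log2 fold change (y axis, IL-4Rα-/- minus IL-4Rα+/+) against the longest annotated transcript in bp (x axis, log scale). Bars give the median and grey bands the 10th to 90th percentile of each decile of the genes tested, falling from 0.12 in the shortest to -0.14 in the longest. The orange points are the 10 methyltransferases.

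The trend with transcript length in each library's deviations from the gene means was then taken out with a smooth curve, and the test was repeated. This also takes out length trends that differ between the genotypes. Lower values were then seen in 9 of 10 methyltransferases, against 54% of all genes. At an unadjusted p under 0.05, 5 of 10 were lower, against 3.48%, and 0 of 10 higher, against 2.55%, and none was called (0 genes over all). The 5 were *Kmt2a* at -0.32 (SE 0.11), *Ash1l* at -0.28 (SE 0.10), *Kmt2e* at -0.27 (SE 0.09), *Kmt2c* at -0.22 (SE 0.08) and *Setd2* at -0.21 (SE 0.07) on the log2 scale. *Setd1b* was at -0.17 (SE 0.08; edgeR, unadjusted p = 0.062, adjusted p = 0.780). *Kmt2d*, the longest and the one called by DESeq2, moved from -0.31 to -0.12 (SE 0.11; edgeR, unadjusted p = 0.335, adjusted p = 0.863). *Nsd1* moved from -0.25 to -0.09, *Kmt2b* from -0.18 to -0.08 and *Setd1a* from -0.04 to 0.04. *Setd1a*, *Kmt2b*, *Nsd1* and *Kmt2d* thus lay nearest to 0 once length was accounted for, and *Kmt2a*, *Ash1l* and *Kmt2e* lay furthest below it. For *Setd1a* the trend was taken at the full transcript length of 6487 bp, which includes bases shared with *Gm49388*. With the union of exons as length, 6 of 10 had an unadjusted p under 0.05, *Setd1b* being the addition. When a trend with GC content was removed instead, 9 of 10 had an unadjusted p under 0.05 and the log2 fold changes were slightly larger, -0.54 for *Kmt2a* and -0.35 for *Kmt2d*. Within the 10 genes the rank correlation of the log2 fold change was -0.45 with transcript length, -0.67 with gene span and 0.52 with GC content, given as descriptions over 10 genes that share their libraries.

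**Figure D3:**
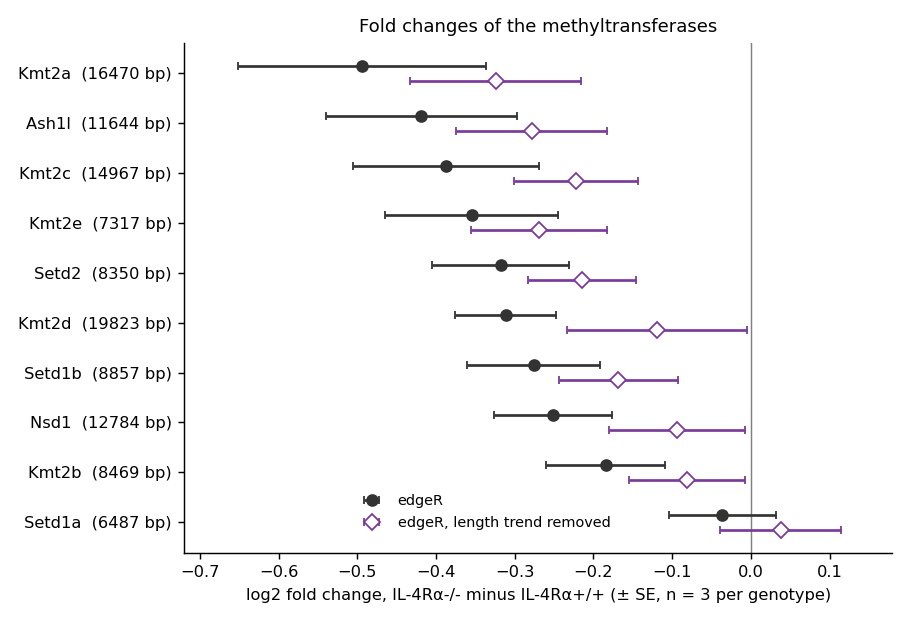
Log2 fold change ± SE (x axis) of each methyltransferase, with transcript length in bp beside its name, from edgeR (filled circles) and after removal of the length trend (open diamonds). Every diamond lies to the right of its circle, from -0.32 for *Kmt2a* to 0.04 for *Setd1a*.

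In IL-4Rα+/+ the members shared the lowest library more than the highest, while in IL-4Rα-/- they shared both alike. Relative to each gene's mean over the 6 libraries, the median of the 10 was 0.17, 0.24 and 0.08 on the log2 scale in IL-4Rα+/+ replicates 1, 2 and 3, and -0.13, -0.28 and -0.07 in IL-4Rα-/- replicates 1, 2 and 3. IL-4Rα-/- replicate 2 was the lowest of its genotype for 8 of 10 and IL-4Rα+/+ replicate 3 the lowest of its genotype for 9 of 10. The highest IL-4Rα-/- library was replicate 3 for 8 of 10, while the highest IL-4Rα+/+ library was replicate 1 for 5 and replicate 2 for the other 5. All 6 libraries stood in the order of the members' mean in 4 of 10. In the median, IL-4Rα+/+ replicate 3 and IL-4Rα-/- replicate 3 came closest to each other. Genes of the longest decile had a median of 0.05, 0.13 and 0.03 in IL-4Rα+/+ and -0.07, -0.12 and -0.04 in IL-4Rα-/- replicates 1, 2 and 3. The long genes as a class were thus highest in IL-4Rα+/+ replicate 2 and lowest in IL-4Rα-/- replicate 2, as the methyltransferases were. Reads that aligned outside annotated exons were 10.9%, 11.7% and 10.3% of all reads in IL-4Rα+/+ and 9.12%, 8.87% and 9.68% in IL-4Rα-/- replicates 1, 2 and 3. This share had the same highest and lowest library and did not overlap between genotypes (exact permutation test, p = 0.10). Its part in the result was not tested.

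Monocyte markers of different subsets also varied between these libraries. Markers of Ly6C-low monocytes, the patrolling subset (*Ace*, *Spn*, *Nr4a1*, *Adgre4* and *Treml4*, grouped after their values were seen), had a summed level of 7033, 5467 and 3069 CPM in IL-4Rα+/+ and 4816, 2212 and 4478 CPM in IL-4Rα-/- replicates 1, 2 and 3. They were thus lowest within their genotype in IL-4Rα+/+ replicate 3 and IL-4Rα-/- replicate 2, the libraries in which most of the methyltransferases were lowest. *Ace*, an angiotensin-converting enzyme, was at 2772, 2122 and 1087 CPM against 1744, 709 and 1603 CPM. Markers of Ly6C-high monocytes, the inflammatory subset (*Ly6c2*, *Ccr2*, *F13a1* and *Fn1*), were highest in the same libraries, at 1920, 4352 and 8120 CPM in IL-4Rα+/+ and 3962, 8141 and 4800 CPM in IL-4Rα-/- replicates 1, 2 and 3. Both sums overlapped between genotypes, and 0 of the 14 monocyte markers had an unadjusted p under 0.05. The part of monocyte subsets in the levels of the methyltransferases was not tested.

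**Figure D4:**
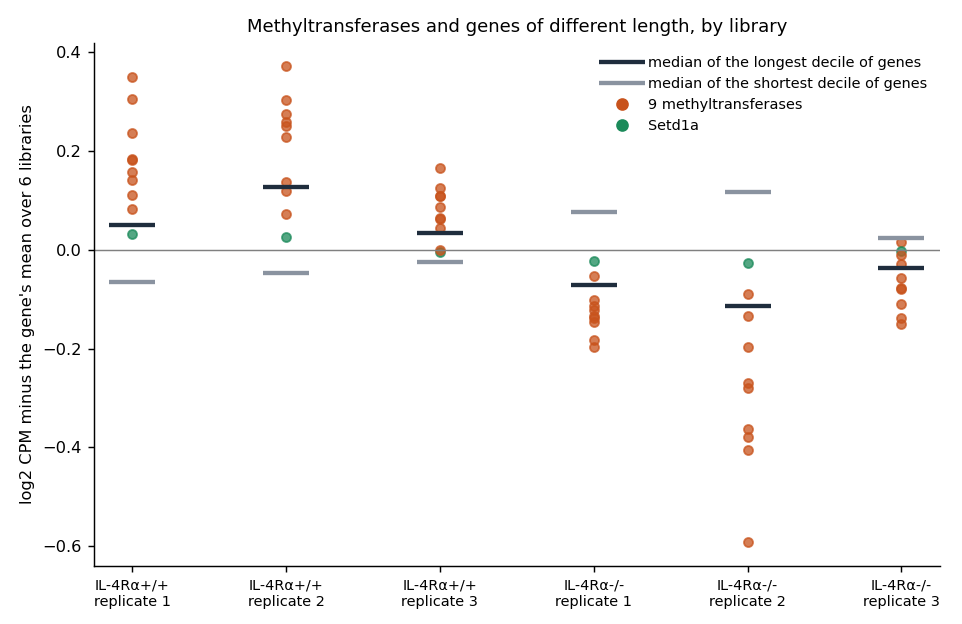
Log2 CPM of each methyltransferase minus its mean over the 6 libraries (y axis), by library (x axis), with *Setd1a* in green. Bars are the medians of the longest and shortest decile of genes. In IL-4Rα-/- replicate 2 the points reach -0.59 for *Kmt2a*.

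Over the 6 libraries, 45 pairs of methyltransferases had Pearson correlations of log2 CPM from 0.69 to 0.99, with a median of 0.90. These libraries share their depth and genotype contrast. Each member had a correlation of 0.857 or more with the mean of the members' standardised log2 CPM, and so did 685 other genes, 4.95% of those tested, with a median transcript of 5387 bp. That mean includes each member itself, so the members' correlations are raised by design against those of other genes. The 5 genes most like the members were *Nhlrc2*, *Smc5*, *Polr2a*, *Dock2* and *Macf1*, at correlations of 0.994 to 0.997. *Polr2a*, the large subunit of RNA polymerase II, was at 340 ± 13.5 CPM (SD, n = 3) in IL-4Rα+/+ and 273 ± 22.3 CPM (SD, n = 3) in IL-4Rα-/- monocytes. *Macf1*, a giant linker of actin and microtubules with a 23495 bp transcript, was at 797 ± 84.5 CPM (SD, n = 3) and 558 ± 66.7 CPM (SD, n = 3). *Smc5* (chromosome maintenance) and *Dock2* (leukocyte migration) had log2 fold changes of -0.22 and -0.27, and *Nhlrc2* of -0.10.

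The proteins with which these enzymes work are given by list for comparison. Of the 4 WRAD core subunits, 3 were higher and 1 lower in IL-4Rα-/- monocytes, with a median log2 fold change of 0.09, and 0 of 4 had an unadjusted p under 0.05. *Dpy30* was at 17.3 ± 1.52 CPM (SD, n = 3) in IL-4Rα+/+ and 20.4 ± 0.87 CPM (SD, n = 3) in IL-4Rα-/- monocytes, and *Ash2l* at 41.2 ± 3.73 and 44.1 ± 1.05 CPM (SD, n = 3). The median WRAD transcript is 3138 bp, much shorter than those of the enzymes. Subunits that belong to some but not all of the KMT2 and SETD1 complexes, such as menin, HCFC1 and CXXC1, had a median of -0.06 over 11 of 12 tested, and 7 were lower. Of these, 2 had an unadjusted p under 0.05, *Bod1l*, a SETD1A partner at forks, at -0.27 (SE 0.07) and *Ncoa6*, a KMT2C and KMT2D partner, at -0.20 (SE 0.07). *Bod1l* and *Ncoa6* also have long transcripts (10540 and 7101 bp). After removal of the length trend 0 of the 11 had an unadjusted p under 0.05. Partners of SETD2, ASH1L and NSD1 and readers of lysine 36 methylation had a median of -0.10 over 8 genes, 5 lower, with 0 at an unadjusted p under 0.05. The largest differences there were those of the Polycomb-linked readers *Phf19*, at 0.40 (SE 0.19), and *Mtf2*, at -0.19 (SE 0.09). With the length trend removed, 1 of the 8 was lower at that threshold, *Mtf2* at -0.20 (edgeR, unadjusted p = 0.0492).

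Of the other lysine methyltransferases, 28 of 29 were tested, 16 were lower and the median was -0.09. The median transcript of this list was 3771.5 bp, and in the decile of 3658 to 4243 bp 50.9% of all genes were lower. At an unadjusted p under 0.05, 2 of the 28 were lower, *Nsd3* at -0.25 (SE 0.08) and *Setd7* at -0.23 (SE 0.07), and 0 were higher. *Nsd3*, the paralog of *Nsd1*, has a transcript of 10105 bp and was at 297 ± 13.7 CPM (SD, n = 3) in IL-4Rα+/+ and 249.7 ± 15.9 CPM (SD, n = 3) in IL-4Rα-/- monocytes. The lysine demethylases, which remove these marks, were lower in 17 of 22 tested, with a median of -0.11. Their median transcript was 5714.5 bp, and in the decile of 5002 to 6472 bp 67.1% of all genes were lower. Of the demethylases, *Kdm5d* was at 0.035 CPM in IL-4Rα+/+ replicate 1 and 0.135 CPM in IL-4Rα-/- replicate 3, the libraries where *Xist* was high. It was at 37.9 to 56.7 CPM in the others. *Kdm2a*, *Kdm3b* and *Kdm5a*, erasers of lysine 36, lysine 9 and lysine 4 methylation, were at -0.19 (SE 0.07), -0.23 (SE 0.09) and -0.24 (SE 0.10), each lower at an unadjusted p under 0.05. After removal of the length trend 1 of the 28 methyltransferases and 0 of the 22 demethylases were lower at that threshold. No gene of these lists was called by edgeR (smallest adjusted p = 0.618) or by DESeq2 (smallest adjusted p = 0.337). Among genes known to depend on KMT2A in blood cells, 4 of 9 were tested and the median was -0.07, with *Cdk6* at -0.30 (SE 0.23) and *Pbx3* at 0.25 (SE 0.12). *Hoxa9* and *Hoxa10* were at 3 counts or fewer in every library.

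**Figure D5:**
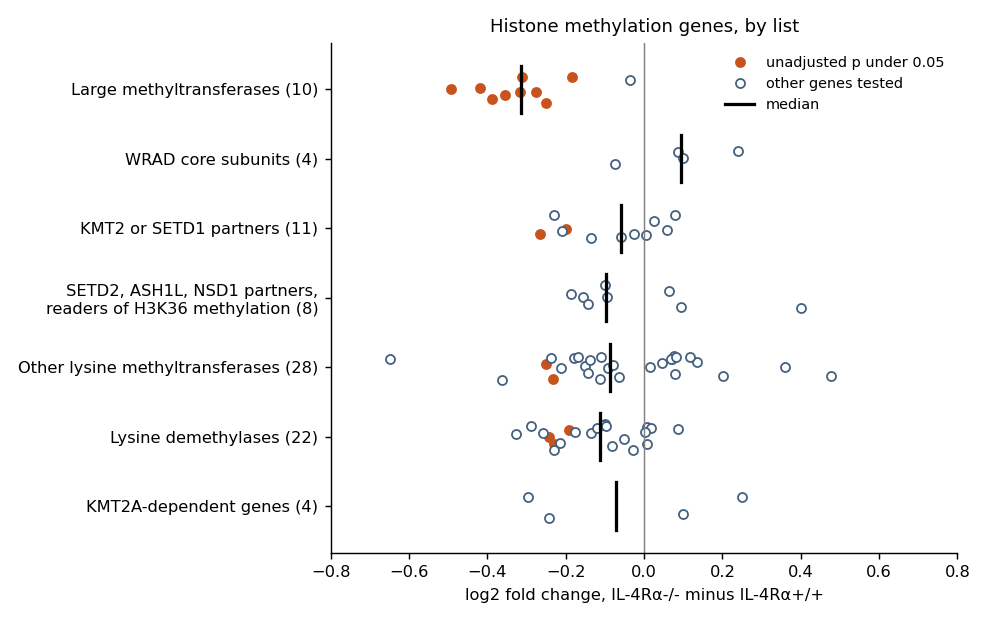
Log2 fold change (x axis) of each gene tested, by list (number tested in brackets), filled where the unadjusted edgeR p was under 0.05, with the median of each list as a bar. The median of the large methyltransferases is -0.31 and the other medians lie between -0.11 and 0.09.

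Markers of several other cell types were higher in the IL-4Rα-/- libraries. Erythroid markers had a summed level of 71.6 to 132 CPM in IL-4Rα+/+ and 189 to 471 CPM in IL-4Rα-/- libraries, with 10 of 12 tested higher at an unadjusted p under 0.05. Eosinophil, basophil and mast cell markers stood at 87.0 to 97.2 against 139.7 to 223 CPM (8 of 11 higher at that threshold), red pulp macrophage markers at 3269 to 3735 against 4228 to 6601 CPM (6 of 10) and neutrophil markers at 63.8 to 296 against 135 to 761 CPM (4 of 12). Pancreatic acinar markers stood at 10.4 to 54.2 against 19.6 to 367 CPM (1 of 11), and *Prss1* and *Amy2a5* were at 3 counts or fewer in every library. B and plasma cell markers were at 585 to 922 against 705 to 771 CPM (1 of 10), T and NK cell markers at 47.8 to 124 against 45.0 to 111 CPM (0 of 10) and dendritic cell markers at 518 to 889 against 486 to 683 CPM (1 of 9). The highest sums of pancreatic and neutrophil markers, 367 and 761 CPM, were both in IL-4Rα-/- replicate 2, where the other IL-4Rα-/- libraries had up to 46.9 and 245 CPM. This is the library that was lowest of its genotype for 8 of the 10 methyltransferases and kept the most *Il4ra* reads. Without it, 8 of 10 still had an unadjusted p under 0.05. The part of these cells in the levels of the methyltransferases was not tested.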

How the data were processed

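Splenic monocyte mRNA of 3 IL-4Rα+/+ and 3 IL-4Rα-/- samples was sequenced by the authors in single-end mode. Reads were aligned to GRCm38 with STAR 2.6.1a, and the authors deposited the counts per gene that STAR made. Which strand setting the deposited counts use was not given in the sources used here. Lines that name no gene (unmapped, multimapping, ambiguous or outside exons) held 21.1% to 22.8% of reads per library and were left out. Between 26807281 and 29033297 reads per library were counted on genes, so 1 count is worth 0.034 to 0.038 CPM.

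Symbols, coordinates and lengths were taken from GENCODE M21, a release close to that of the authors, which matched 55240 of 55421 identifiers. Counts were filtered with filterByExpr (minimum count 10), scaled by TMM and tested with edgeR 4.0.16 (quasi-likelihood, R 4.3.3) with Benjamini-Hochberg adjustment over 13849 genes. A loess curve (span 0.5) against log transcript length was removed per library as an offset. It was fitted to the deviation of scaled log2 counts from each gene's mean over all libraries. DESeq2 1.42.0, other scalings and filters, union-exon length, GC, a replicate block, leave-one-out and, chosen after the data were seen, the *Xist* level as a covariate were alternatives. The fits were tested on simulated data.

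The 10 genes and the comparison lists were chosen with earlier results of these data known. Named were *Il4ra*, the 10 genes, in each list of histone methylation genes those with an unadjusted p under 0.05 (at most the 4 smallest, or else the 2 largest differences), and the 5 genes most correlated with the members' mean.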

Additional observations from a re-analysis of the deposited data

How the results depend on the processing

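The 10 methyltransferases were lower in IL-4Rα-/- monocytes under every scaling, filter and left-out library, except that *Setd1a* was at 0.038 on the log2 scale after removal of the length trend and at 0.037 with the replicate block as well. DESeq2 called 80 genes, among them 1 methyltransferase (*Kmt2d*) and *Il4ra* (log2 fold change -1.67, adjusted p = 0.0111, against 0.618 with edgeR), and edgeR called 0 genes under every other setting, at a threshold of 0.05 too. The number of methyltransferases at an unadjusted p under 0.05 was 5 after removal of the length trend, 3 with the replicate block as well, and 5 to 8 when 1 library was left out. The lowest of these was without IL-4Rα+/+ replicate 2, when *Kmt2a*, *Kmt2b*, *Kmt2c* and *Kmt2e* dropped out. The median log2 fold change of the methyltransferases was -0.19 after removal of the length trend, -0.22 with union-exon length, -0.19 with block and length trend together, and -0.35 to -0.27 when 1 library was left out. Leaving out 1 library moved *Il4ra* between -2.30 and -1.41, the former without IL-4Rα-/- replicate 2.

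With the replicate block alone, 8 methyltransferases had an unadjusted p under 0.05 and 765 genes did in all. The replicate numbers did not pair the libraries: the deviations of same-numbered libraries correlated at 0.18, -0.27 and -0.30. With the *Xist* level as a covariate, added since *Xist* was high in 1 library of each genotype (15739 and 13512 counts), the number was 8. *Kmt2b* kept an unadjusted p under 0.05 in 3 of 17 alternatives and *Ash1l* in 17 of 17. The median of the KMT2A-dependent genes turned from -0.07 to 0.011 after removal of the length trend, 0.0083 with union-exon length and 0.025 with block and length trend together, was -0.08 with the block alone, and ran from -0.21 to 0.080 over left-out libraries, the latter without IL-4Rα-/- replicate 2. Over the alternatives, 0 to 6 of the other lysine methyltransferases and 0 to 5 of the lysine demethylases had an unadjusted p under 0.05, with the highest numbers after removal of a GC trend. Among the 5 genes most like the members, 2 also had the highest rank correlation. The lowest count of any of the 10 genes was 695, in *Setd1a*. Where a value changed, the cause was not tested.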
